A study of Homo sapiens with 6 samples.

Results

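The 9 genes described here were CHGA, CHGB, SCG2, SCG3, SYP, ENO2, NCAM1 and INSM1, which are used as markers of neuroendocrine cells, and REST, which encodes a repressor of neuronal genes. They were taken by name from the 60658 Ensembl identifiers of the deposited tables, and all 9 were found. RNA-seq was performed on the lines C4-2B MDVR and CWR22Rv1 after 48 h in DMSO vehicle, in 10 µM apoptozole (APO) or in 10 µM VER155008 (VER). Both lines are human castration-resistant prostate cancer cell lines, both inhibitors block the ATPase activity of HSP70, and C4-2B MDVR is the enzalutamide-resistant line derived from C4-2B. C4-2B MDVR cells were maintained in medium with 20 µM enzalutamide, and none is named for CWR22Rv1 cells, so line and medium cannot be told apart. The study's methods do not state whether enzalutamide was present during the 48 h of treatment. For 3 libraries the titles and the study's methods give C4-2B MDVR, which is followed here, whereas other labels give LNCaP-C4-2B and parental.

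Each of the 6 conditions had 1 library, so no value below has a replicate error and no p-value is given. Levels are FPKM (fragments scaled by transcript length and by library size), a scale that is per length and allows genes to be compared. Where 3 levels of a line follow each other, they are in the order DMSO, APO and VER. Read totals were not used here. The relative depth read from the lowest values was between 1 and 1.67 across the libraries, lowest with DMSO and highest with APO in C4-2B MDVR cells. A level under 0.1 FPKM rests on few fragments in any library, and a value of 0 is given only as listed at 0. Genes of the mitochondrial chromosome held 10.4% of all FPKM in the CWR22Rv1 APO library, 25.7% in both other CWR22Rv1 libraries and 14.8% to 16.4% in C4-2B MDVR cells.

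Neuroendocrine cells store peptide hormones in dense-core granules and release them on stimulation. Chromogranins and secretogranins are the acidic proteins that fill these granules, and synaptophysin, encoded by SYP, spans the membrane of small synaptic-like vesicles. REST binds a recognition element in or near many neuronal genes and recruits corepressors that keep them silent in epithelial cells. SRRM4, a neuronal splicing factor, can redirect the splicing of REST to a form that represses less. Some prostate adenocarcinomas acquire these markers during androgen receptor targeted therapy, when androgen-driven luminal genes can be lost.

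The sequences shown first are a CHGA promoter element and the REST elements found among related genes, since REST is itself one of the 9 genes. RefSeq windows from 250 bases before to 50 after the start (GRCh38.p14) were matched for 5 of the 9 genes, with 2 windows for REST. CHGB, NCAM1, INSM1 and SCG2 had no match. The CHGA stretch below is chr14:92922900-92923149 on the plus strand, written 5′ to 3′, and the capitals mark the cyclic AMP response element TGACGTCA, which starts 54 bases before the RefSeq start. The GENCODE 29 gene model of CHGA starts farther upstream, at 92923080, inside this stretch. CHGA was the only one of these 6 windows with that element, which 1.85% of all 35116 windows held on either strand.
CHGA: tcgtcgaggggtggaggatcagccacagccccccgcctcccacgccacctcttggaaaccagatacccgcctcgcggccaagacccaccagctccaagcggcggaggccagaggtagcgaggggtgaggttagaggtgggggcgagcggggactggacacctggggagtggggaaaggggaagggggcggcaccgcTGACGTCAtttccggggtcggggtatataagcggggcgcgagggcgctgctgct

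The element of REST was searched on both strands as TTCAGCACC, 2 free bases and GGACAG, with at most 1 of the 15 fixed letters different. None of the protein-coding transcripts of the 9 genes held it, the closest having 3 differences. Introns and other sequence outside the transcripts and the windows were not searched, so elements there would be missed. It was found in the transcripts of 4 of the 63 genes of the neuroendocrine lists, against 0.513% of the 19669 genes with protein-coding transcripts. All 4 sites lay in the 5′ untranslated region of the GENCODE 29 transcript, within 1 exon. SYN1 held the element in its RefSeq window, before the start. Of all windows, 0.0541% held it. The sites are given 5′ to 3′ on GRCh38, with the fixed positions in capitals. That of SRRM4 is chr12:118981833-118981849 on the plus strand, that of VGF chr7:101165559-101165575 on the plus strand, opposite to the gene, that of SYT4 chr18:43277297-43277313 on the minus strand, that of VIP chr6:152750893-152750909 on the plus strand and that of SYN1 chrX:47620074-47620090 on the minus strand. A match describes the letters only, and binding of REST was not measured here.
SRRM4: TTCAGCACTttGGACAG
VGF: TTCAGCACGctGGACAG
SYT4: TTCAGCACCtcGGACAG
VIP: TTCAGCACCtaAGACAG
SYN1: TTCAGCACCgcGGACAG

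CWR22Rv1 cells held RNA of CHGA, CHGB, SCG2, SCG3 and SYP at every condition, whereas C4-2B MDVR cells held little or none of it. ENO2 and REST were expressed in both lines, and NCAM1 and INSM1 lay near or below 0.1 FPKM in most libraries. CHGA, CHGB, INSM1, SCG2 and SCG3 were below 0.1 FPKM in all 3 C4-2B MDVR libraries. NCAM1 was below 0.1 FPKM in 4 of the 6 libraries and INSM1 in 5. ENO2, SYP and REST were never below it, and neither were CHGA, CHGB, SCG2 and SCG3 in CWR22Rv1 cells.

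CHGA (ENSG00000100604), on chromosome 14 of GRCh38 from 92923080 to 92935293, encodes chromogranin A, the granule protein measured in serum as a neuroendocrine tumor marker. It was listed at 0 in all 3 C4-2B MDVR libraries, and stood at 10.9, 8.64 and 11.7 FPKM in CWR22Rv1 cells. CHGB (ENSG00000089199), on chromosome 20 from 5911430 to 5925361, encodes chromogranin B. Its level was 0.0178, 0 and 0.0155 FPKM in C4-2B MDVR cells and 8.12, 6.19 and 10.9 FPKM in CWR22Rv1 cells. The lines did not overlap for either chromogranin, and all 3 CWR22Rv1 libraries were high.

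SCG3 (ENSG00000104112), on chromosome 15 from 51681353 to 51721031, encodes secretogranin III, which binds chromogranin A at the granule membrane. It was at 0.0268, 0.0338 and 0.0161 FPKM in C4-2B MDVR cells and at 24.7, 22.1 and 31.0 FPKM in CWR22Rv1 cells, the highest of the 4 granins there. SCG2 (ENSG00000171951), on chromosome 2 from 223596940 to 223602503, encodes secretogranin II, the precursor of secretoneurin. It was the lowest granin of CWR22Rv1 cells, at 0.964, 2.99 and 1.67 FPKM, and was at 0.0221, 0.0593 and 0.0568 FPKM in C4-2B MDVR cells. The lines were apart for both genes, and the highest SCG2 level was that of the CWR22Rv1 APO library.

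SYP (ENSG00000102003), on chromosome X from 49187804 to 49200259, was at 0.258, 0.741 and 0.917 FPKM in C4-2B MDVR cells. In CWR22Rv1 cells it was at 49.6, 30.0 and 49.99 FPKM. Every C4-2B MDVR library was thus under 1 FPKM, although above the 0.1 FPKM that the granins stayed below. ENO2 (ENSG00000111674), on chromosome 12 from 6913745 to 6923698, encodes the gamma subunit of enolase, known as neuron-specific enolase. It was the highest of the 9 genes in each library except that of CWR22Rv1 with VER, where SYP was higher, at 21.9, 16.9 and 14.7 FPKM in C4-2B MDVR cells and 79.3, 32.8 and 48.6 FPKM in CWR22Rv1 cells. ENO1, the enolase of most tissues, exceeded ENO2 in every library, by a factor of 34.2 to 45.2 in C4-2B MDVR cells and of 6.63 to 11.2 in CWR22Rv1 cells. ENO2 shares part of its span with LRRC23 on the same strand, which was at 4.33 to 10.6 FPKM.

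NCAM1 (ENSG00000149294), on chromosome 11 from 112961247 to 113278436, encodes the adhesion molecule CD56. It was at 0.0519, 0.266 and 0.0511 FPKM in C4-2B MDVR cells and at 0.0870, 0.169 and 0 FPKM in CWR22Rv1 cells, and the lines overlapped. INSM1 (ENSG00000173404), on chromosome 20 from 20368121 to 20370949, encodes a zinc finger transcription factor of neuroendocrine differentiation. It was at 0.156 FPKM in the CWR22Rv1 DMSO library and listed at 0 in the other 5 libraries. The related NCAM2 was at 13.7 to 30.2 FPKM over the 6 libraries, well above NCAM1.

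REST (ENSG00000084093), on chromosome 4 from 56907876 to 56966678, was at 11.7, 12.1 and 11.6 FPKM in C4-2B MDVR cells. In CWR22Rv1 cells it was at 16.6, 27.4 and 20.5 FPKM. REST RNA was thus higher in the line with the granin and SYP RNA, and the lines did not overlap. The levels are values per gene, so the spliced forms of REST were not resolved, and REST protein was not measured. NOA1 lies opposite REST in an overlapping span and was at 13.9 to 22.3 FPKM, and whether the authors counted by strand is not given in the sources used here.

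**Figure D1:**
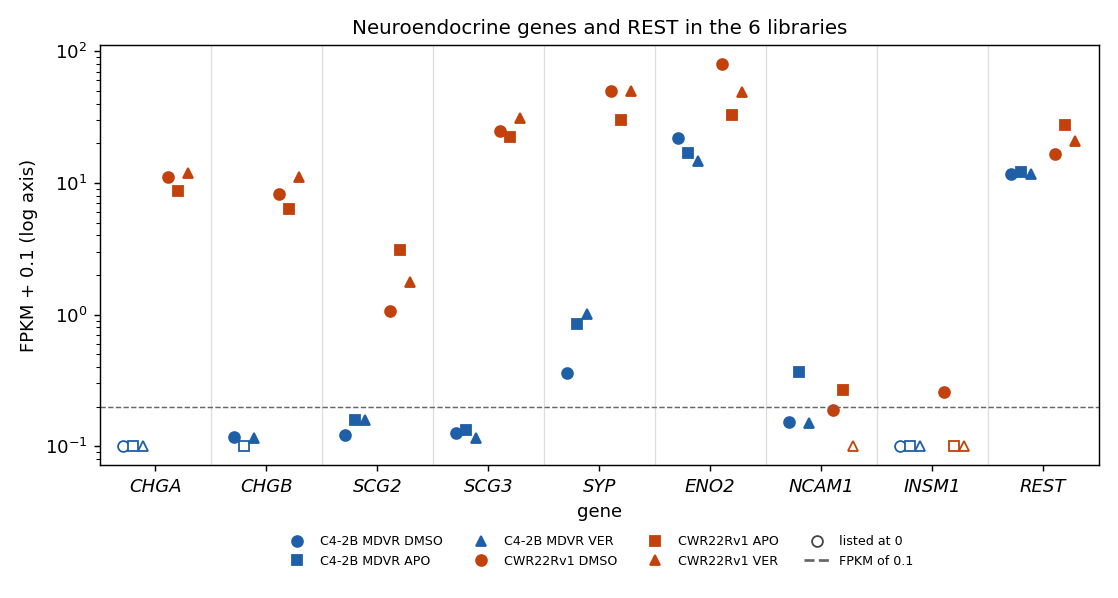
FPKM + 0.1 of the 9 genes on a log axis, 1 point for each of the 6 libraries (circles DMSO, squares APO, triangles VER, open symbols listed at 0, dashed line an FPKM of 0.1). CHGA, CHGB, SCG3 and SYP are at 6.19 FPKM or more in CWR22Rv1 cells and under 1 FPKM in C4-2B MDVR cells, whereas REST differs less, at 11.6 to 12.1 against 16.6 to 27.4 FPKM.

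With DMSO alone, 9 of the 9 genes were lower in C4-2B MDVR than in CWR22Rv1 cells by more than 1.2-fold, the fold threshold of the study, where 39.9% of all 23671 genes compared were. CHGA, CHGB, SCG2, SCG3 and INSM1 passed the filter through CWR22Rv1 libraries alone, so they had to be lower in C4-2B MDVR cells, and NCAM1 was below 0.1 FPKM in both DMSO libraries. The number was 7 with a pseudocount of 1, at 1.5-fold or with more than 1 FPKM required, and it is a description of these genes. On the log2(FPKM + 0.1) scale, C4-2B MDVR minus CWR22Rv1 was -7.12 for SYP, -1.85 for ENO2 and -0.51 for REST, genes above 0.1 FPKM in both. No fold is given for the granins, NCAM1 and INSM1, whose C4-2B MDVR levels with DMSO were under 0.1 FPKM or listed at 0. Over all 6 libraries, 7 of the 9 genes were higher in every CWR22Rv1 library than in any C4-2B MDVR library, against 21.8% of all genes. For CHGA, CHGB, SCG3 and SYP the lowest CWR22Rv1 library was over 10-fold above the highest C4-2B MDVR library on the FPKM + 0.1 scale. Of all genes, 2.29% were. For CHGA, CHGB and SCG3 the lower value is mostly the added 0.1, so this ratio is not a measured fold. None of the 9 was higher in every C4-2B MDVR library, where 19.1% of all genes were. CHGA, CHGB, SCG2, SCG3 and INSM1 could not be, having passed the filter through CWR22Rv1 libraries alone. The number of 7 is likewise a description of these genes.

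The genes that act with the granins differed between the lines in part. Of 18 genes of prohormone processing and dense-core granules, 17 passed the filter. Of these, 10 were higher in every CWR22Rv1 library (21.8% of all genes) and 0 in every C4-2B MDVR library (19.1%). PCSK1, SNAP25 and SYN1 were above 0.1 FPKM in CWR22Rv1 libraries alone, so they could not be higher in C4-2B MDVR cells. VGF, another granin-like peptide precursor, was at 1.25, 0.627 and 0.659 FPKM in C4-2B MDVR cells and at 742, 455 and 362 FPKM in CWR22Rv1 cells. PCSK1N, an inhibitor of the prohormone convertase PCSK1, was at 30.4, 127 and 60.4 FPKM in C4-2B MDVR cells and at 144, 88.7 and 184 FPKM in CWR22Rv1 cells, where the lines overlapped. The convertases themselves were low, with PCSK1 at no more than 0.218 FPKM and PCSK2 at no more than 0.158 FPKM in any library. SYT4, a synaptotagmin, and RAB3A, a vesicle GTPase, were higher in C4-2B MDVR cells with DMSO, at 272 against 93.8 FPKM and at 19.2 against 10.6 FPKM, and both overlapped between the lines when the inhibitor libraries were included.

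Of 13 transcription factors and splicing genes of neuroendocrine prostate cancer, 11 passed the filter. Of these, 7 were higher in every CWR22Rv1 library (21.8% of all genes) and 1, HES6, in every C4-2B MDVR library (19.1%). SRRM4, POU3F2 and MYCN were above 0.1 FPKM in CWR22Rv1 libraries alone, so they could not be higher in C4-2B MDVR cells. SRRM4 was at 0.0238, 0 and 0.0207 FPKM in C4-2B MDVR cells and at 25.3, 9.79 and 18.5 FPKM in CWR22Rv1 cells. ONECUT2, a homeobox factor, was at 1.32 to 2.34 FPKM and at 2.97 to 4.48 FPKM in the respective lines. HES6, a NOTCH pathway factor, was at 25.5 to 41.1 FPKM in C4-2B MDVR cells and at 9.54 to 15.0 FPKM in CWR22Rv1 cells. NEUROD1, a basic helix-loop-helix factor, was listed at 0 in every library.

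Of 12 other neuroendocrine and neuronal markers, 11 passed the filter. Of these, 6 were higher in every CWR22Rv1 library (21.8% of all genes) and 1, DLL3, in every C4-2B MDVR library (19.1%). ELAVL3 and ELAVL4 were above 0.1 FPKM in CWR22Rv1 libraries alone, so they could not be higher in C4-2B MDVR cells. PEG10, a retrotransposon-derived gene, was at 0.737, 0.242 and 0.187 FPKM in C4-2B MDVR cells and at 122, 106 and 88.6 FPKM in CWR22Rv1 cells. TUBB3, a neuronal tubulin, was at 2.76 to 12.4 FPKM and at 30.5 to 84.7 FPKM in the respective lines. DLL3, a NOTCH ligand and drug target in neuroendocrine tumors, was at 7.91 to 10.8 FPKM in C4-2B MDVR cells and at 2.02 to 3.64 FPKM in CWR22Rv1 cells. The markers of this list therefore did not all follow SYP and the granins.

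**Figure D2:**
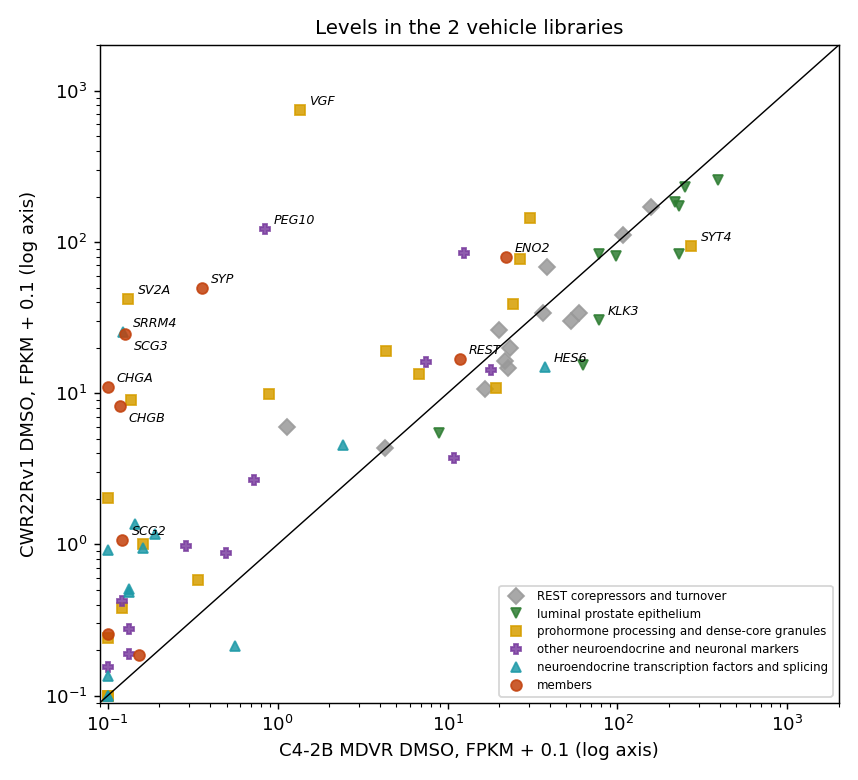
FPKM + 0.1 of the DMSO library of C4-2B MDVR (horizontal) and CWR22Rv1 cells (vertical) on log axes, 1 point a gene, coloured by list, with the diagonal marking equal levels. CHGA, CHGB, SCG3, SYP, SRRM4, VGF, SV2A and PEG10 lie far above the diagonal, REST close to it (11.7 and 16.6 FPKM) and HES6, SYT4 and KLK3 below it.

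Markers of the prostate epithelium were compared in the same libraries. All 10 luminal markers were above 0.1 FPKM in each library, summing to 912 to 1641 FPKM in C4-2B MDVR and 952 to 1143 FPKM in CWR22Rv1 cells, and 0 of them separated the lines over all 6 libraries. With DMSO alone, 7 of the 10 were higher in C4-2B MDVR cells and 0 lower, where 39.9% of all genes were lower. Their median log2 difference was 0.50, against 0.00 for all genes. The share of all genes that were higher is not given here, so the number of 7 describes these genes alone. KLK2 was at 229 FPKM in C4-2B MDVR and 83.4 FPKM in CWR22Rv1 cells with DMSO, and KLK3 at 77.8 and 30.2 FPKM. KRT8 and KRT18, the keratins of luminal cells, were at 147 to 335 FPKM and 163 to 333 FPKM over the 6 libraries. Of the 4 basal markers, TP63 and KRT5 were listed at 0 throughout and KRT14 was at no more than 0.101 FPKM. KRT15 was at 0.176, 0.293 and 0.105 FPKM in C4-2B MDVR and at 1.54, 0.563 and 0.201 FPKM in CWR22Rv1 cells. Of the markers of other cells, the 5 fibroblast genes summed to 6.997 to 11.2 FPKM in C4-2B MDVR and to 18.3 to 31.98 FPKM in CWR22Rv1 cells, where LUM alone was at 13.1 to 26.2 FPKM. COL1A1 made up most of the C4-2B MDVR sum and was higher there, at 6.68 to 10.8 FPKM against 3.32 to 3.78 FPKM. Of the 5, 3 were higher in every CWR22Rv1 library (21.8% of all genes) and 1 in every C4-2B MDVR library (19.1%). PECAM1 was listed at 0 throughout. The leukocyte markers summed to 0.835 to 3.78 FPKM and the endothelial ones to 0.0845 to 0.361 FPKM. The part of these genes in the line difference was not tested. In these bulk libraries, fewer cells with a marker and less RNA in each cell cannot be told apart.

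In CWR22Rv1 cells the inhibitors left SYP and the granins, except SCG2 with APO, within 2-fold of DMSO. All 9 genes passed the filter of more than 0.1 FPKM in at least 1 library of the line. With APO, 3 were higher by more than 1.2-fold (35.6% of all 21608 genes compared) and 5 lower (39.2% of all genes), with a median log2 fold change of -0.33 against -0.01 for all genes. With VER, 4 were higher (32.1% of all genes) and 3 lower (32.3%), with a median of 0.11 against 0.00 (-0.0001). Of these calls, 1 with APO and 2 with VER came from a library listed at 0, namely INSM1 with both inhibitors and NCAM1 with VER. INSM1 passed the filter through the DMSO library alone, so it could only be lower with both inhibitors. NCAM1 passed through the APO library alone, so it could only be higher with APO, and it was below 0.1 FPKM with DMSO and VER. Nothing is read from the calls of these genes. With VER, 2 were higher and 3 lower when each library was scaled to the same sum without mitochondrial genes, where SCG3 (0.26) and REST (0.24) were below 1.2-fold, and 4 were higher and 1 lower with a pseudocount of 1. With 9 genes and 1 library a condition, whether these shares differ from those of all genes was not tested.

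SCG2 was higher with both inhibitors in CWR22Rv1 cells, with differences from DMSO of 1.54 for APO and 0.73 for VER on the log2(FPKM + 0.1) scale used for all fold changes here. ENO2 was lower with both, by -1.27 and -0.70. ENO1 and ENO3 were lower too, with values of -0.53 and -1.11 for APO and of -0.73 and -0.55 for VER. REST was higher with both, by 0.72 and 0.30, while SRRM4 was lower, at -1.36 and -0.45. Rescaling each library to the same sum took the REST value with VER to 0.24, below 1.2-fold.

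The other genes differed between the inhibitors in CWR22Rv1 cells. SYP was lower with APO, at -0.72, and at 0.01 with VER. CHGB was on opposite sides of DMSO, with -0.39 for APO and 0.42 for VER. CHGA was at -0.33 and 0.11 and SCG3 at -0.16 and 0.33 in the same order. Taken directly, the VER library exceeded the APO library by 0.44 for CHGA, 0.81 for CHGB, 0.49 for SCG3 and 0.73 for SYP, and was below it by -0.81 for SCG2. The CHGA value with APO was -0.22 and thus under 1.2-fold when the sums were made equal, and that of SCG3 with APO was -0.31 when this was done without mitochondrial genes, whose share was lowest in the APO library. The part of that share in the differences was not tested.

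**Figure D3:**
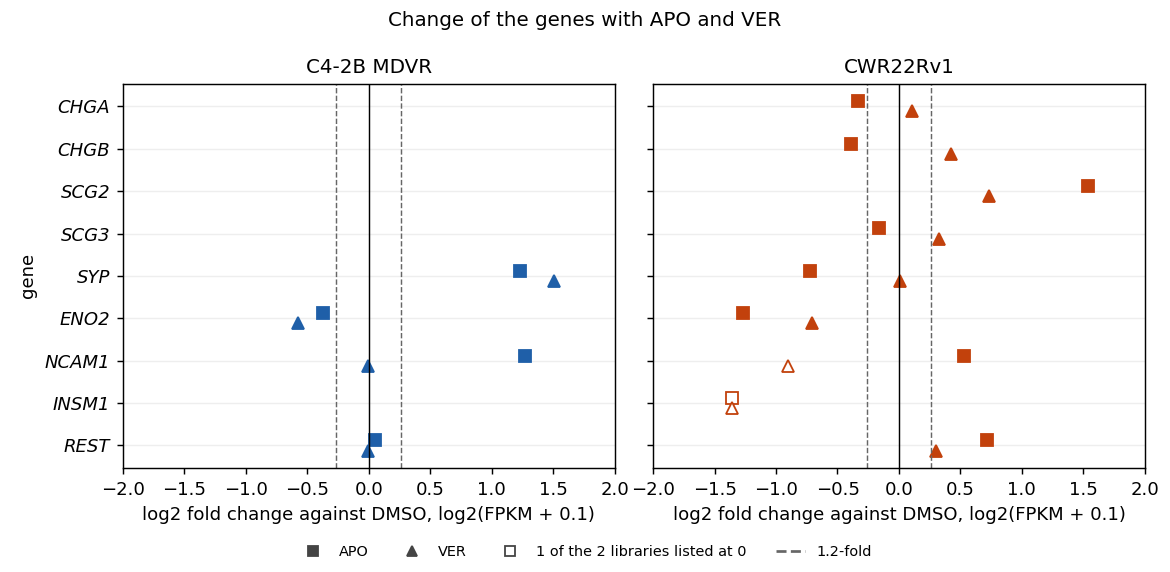
Log2 fold change of each gene against DMSO of the same line, on the log2(FPKM + 0.1) scale, for APO (squares) and VER (triangles), 1 library against 1, with dashed lines at 1.2-fold and open symbols where 1 of the pair was listed at 0. Genes under 0.1 FPKM in all 3 C4-2B MDVR libraries are not plotted there, SYP is higher with both inhibitors in C4-2B MDVR cells (1.23 and 1.51), and ENO2 is lower in all 4 comparisons.

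In C4-2B MDVR cells 4 of the 9 genes passed the filter, namely SYP, ENO2, NCAM1 and REST, and none of the granins was brought above 0.1 FPKM by either inhibitor. With APO, 2 of the 4 were higher (37.7% of all 20122 genes compared) and 1 lower (35.4%). With VER, 1 was higher (35.6%) and 1 lower (34.9%). The medians were 0.64 and -0.01 against 0.00 for all genes. SYP was higher by 1.23 with APO and 1.51 with VER, but its highest level, 0.917 FPKM, remained far below the 30.0 FPKM of the lowest CWR22Rv1 library. ENO2 was lower, at -0.37 and -0.58, and REST was nearly level, at 0.05 and -0.01. NCAM1 was at 0.0519 FPKM with DMSO, 0.266 FPKM with APO and 0.0511 FPKM with VER. It passed the filter through the APO library alone, so it could only be higher with APO. It is 1 of the 2 genes called higher there and enters the median of 0.64, and no fold is read from its levels.

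Both comparisons of a line share its DMSO library, so an error in that library moves them together. For ENO2 the 4 differences had the same sign, as had those of ENO1 and ENO3. Of 5 widely expressed genes looked at after these values were seen, GAPDH, ACTB and HPRT1 were also lower in each of the 4 comparisons. GAPDH, a glycolytic enzyme, was at 2374, 1693 and 1432 FPKM in C4-2B MDVR and 2523, 1690 and 1460 FPKM in CWR22Rv1 cells. ACTB, a cytoskeletal actin outside that pathway, was at 1664, 1338 and 1162 FPKM and at 1348, 876 and 756 FPKM. RPLP0, a ribosomal protein, was higher in each, at 1862, 2670 and 2321 FPKM and at 1747, 3008 and 2327 FPKM. TBP, the remaining gene, was at 8.72, 8.85 and 5.62 FPKM in C4-2B MDVR and 10.4, 13.5 and 10.8 FPKM in CWR22Rv1 cells. It was lower than DMSO only with VER in C4-2B MDVR cells.

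Of the 13 corepressors and turnover factors of REST, all were above 0.1 FPKM in each library. Against DMSO in C4-2B MDVR cells, 0 were higher and 9 lower with APO and 1 was higher and 8 lower with VER. In CWR22Rv1 cells the numbers were 3 and 5 with APO and 0 and 8 with VER. Of all genes, 35.4% and 34.9% were lower in C4-2B MDVR and 39.2% and 32.3% in CWR22Rv1 cells, and the difference from these shares was not tested. BTRC, the ubiquitin ligase subunit that targets REST for degradation, was above DMSO by 0.20 and 0.47 in C4-2B MDVR and by 0.66 and 0.19 in CWR22Rv1 cells. Of these, 0.20 and 0.19 were below 1.2-fold. FBXW11, another turnover factor of the list, was at -0.19 and -0.06 in C4-2B MDVR and at 0.46 and -0.01 in CWR22Rv1 cells. KDM1A, the histone demethylase that acts with REST, was at 59.7, 31.9 and 30.9 FPKM in C4-2B MDVR and 33.9, 27.2 and 22.9 FPKM in CWR22Rv1 cells. EHMT2, a histone methyltransferase, was lower in all 4 comparisons, by -0.84 and -0.84 in C4-2B MDVR and -0.54 and -0.31 in CWR22Rv1 cells. CTDSP1, a small phosphatase bound by REST, was lower as well, by -0.39 and -0.28 and by -0.45 and -0.72. HDAC1, the most abundant of the list, was at 119 to 170 FPKM. The medians of the list were -0.33, -0.35, 0.02 and -0.28 for APO and VER in C4-2B MDVR and then in CWR22Rv1 cells.

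Neuropeptides are stored in granules with the granins. Of their genes, CALCA and CALCB were higher and GAL lower with both inhibitors in both lines. In C4-2B MDVR cells 6 of the 11 passed the filter, and 5 were higher and 1 lower with each inhibitor, against 37.7% and 35.6% higher of all genes. CALCB, PTHLH, NTS and TAC1 were under 0.1 FPKM or listed at 0 with DMSO and passed the filter through treated libraries alone, so they could only be higher, and nothing is read from the number. In CWR22Rv1 cells 7 passed, with 3 higher and 3 lower with APO and 2 higher and 2 lower with VER, against 35.6% and 39.2% and then 32.1% and 32.3% of all genes. CALCA, the gene of calcitonin and CGRP, was at 0.119, 28.5 and 9.57 FPKM in C4-2B MDVR and at 2.50, 145 and 45.0 FPKM in CWR22Rv1 cells. CALCB, its close relative, was at 0.0836, 3.36 and 0.819 FPKM and at 11.9, 38.4 and 20.2 FPKM. The relatives are similar in sequence, so reads may have been divided between them, and how the authors treated such reads is not given in the sources used here. GAL, the galanin precursor, was lower in each comparison, at 98.2, 52.7 and 38.3 FPKM in C4-2B MDVR and 63.6, 17.8 and 28.0 FPKM in CWR22Rv1 cells. Thus CALCA was higher in every treated library than in DMSO of its line, and GAL was lower.

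The genes that hold the element of REST shown above did not share 1 pattern. SRRM4 and VGF were high in CWR22Rv1 cells and lower with both inhibitors there, VGF by -0.71 with APO and -1.03 with VER. SYN1, a synaptic vesicle protein, was at no more than 0.0485 FPKM in C4-2B MDVR cells and at 1.92, 2.61 and 1.92 FPKM in CWR22Rv1 cells. SYT4 was at 272, 111 and 241 FPKM in C4-2B MDVR and 93.8, 57.8 and 123 FPKM in CWR22Rv1 cells, and VIP reached no more than 0.0607 FPKM.

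**Figure D4:**
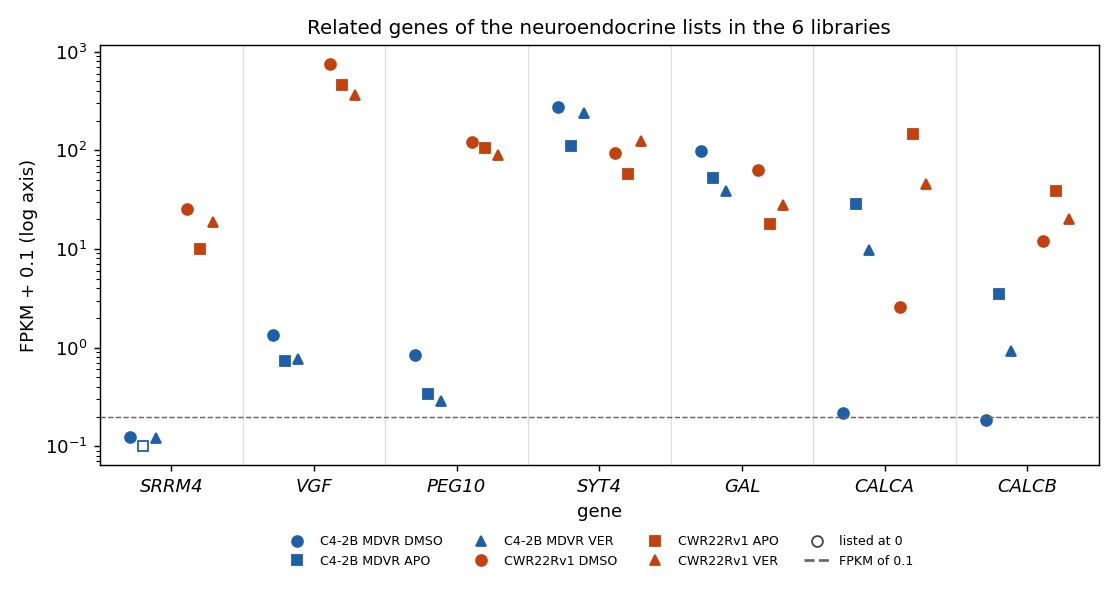
FPKM + 0.1 of 7 genes of the related lists on a log axis, 1 point for each of the 6 libraries, with symbols as in the plot of the 9 genes. SRRM4, VGF and PEG10 separate the lines, CALCA is higher with APO and VER than with DMSO in both lines (0.119 to 28.5 FPKM with APO in C4-2B MDVR cells), and GAL is lower.

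The luminal genes moved in the same libraries. In C4-2B MDVR cells 8 of the 10 were lower and 2 higher with APO, and 7 lower and 1 higher with VER, with medians of -1.85 and -0.57 (35.4% and 34.9% of all genes were lower). In CWR22Rv1 cells 7 were lower and 2 higher with APO, and 6 lower and 2 higher with VER, with medians of -0.71 and -0.31 (39.2% and 32.3% lower of all genes). The keratins KRT8 and KRT18 were higher with APO in both lines, by 0.61 and 0.41 in C4-2B MDVR and by 0.40 and 0.94 in CWR22Rv1 cells, and ACP3, prostatic acid phosphatase, was higher with VER, by 1.10 and 0.50. KLK3, which encodes PSA, was at 77.8, 8.84 and 24.4 FPKM in C4-2B MDVR and 30.2, 2.33 and 22.7 FPKM in CWR22Rv1 cells. The granins of C4-2B MDVR cells stayed under 0.1 FPKM in the libraries with the lower KLK3. In CWR22Rv1 cells the library with the lowest KLK3, that with APO, also had the lowest CHGA, CHGB, SCG3 and SYP and the highest SCG2.

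The genes whose log2 levels were most like those of each of the 7 genes at 1 FPKM or more in at least 1 library were sought among 14240 others (14241 for SCG2) with a mean of at least 1 FPKM. The likeness is Pearson's r over the 6 libraries, which fall into 2 lines of 3, so r mostly reflects the line difference, and 304 genes exceeded 0.99 for CHGA and 299 for SCG3. BMP5 and ZNF311 were among the 3 nearest genes of both CHGA and SCG3, and were each listed at 0 in C4-2B MDVR cells. The nearest gene was SLC6A15 for CHGB (0.9999), LUM for SYP (0.9998) and HOXA7 for SCG2 (0.9987). For ENO2, for which 10 genes exceeded 0.99, the nearest were ATP5MF (0.9954), SMG9 (0.9950) and CERS1 (0.9947). For REST, with 11 such genes, they were TDP2 (0.9974), MKX (0.9956) and PAIP2 (0.9956).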

How the data were processed

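The authors prepared 1 RNA-seq library for each of 6 conditions and deposited FPKM values for 60658 Ensembl genes. The submitters' processing notes name HISAT, Cufflinks, Cuffnorm and GRCh38, without the role of each. Their versions and the annotation release are not given in the sources used here. The labels describe a stranded kit with selection of polyadenylated RNA, and the study's methods another kit.

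Identifiers were matched to symbols and coordinates of GENCODE 29 (57047 matched, and 1 list symbol came from a table of current symbols). Fold changes are differences of log2(FPKM + 0.1) for genes above 0.1 FPKM in any of a line's 3 libraries, or in any of the 6 when lines are compared, called above 1.2-fold. FPKM are not counts, so no count test was made. Relative depth is the commonest ratio of values from 0.001 to 0.05 FPKM between libraries.

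The genes and lists were chosen with earlier results of these data known. Named genes were all 9, from each of 12 lists up to 3 with the highest mean and up to 3 with the largest change shared by the 4 inhibitor comparisons, and the 3 nearest by r. NEUROD1, PCSK1, PCSK2, SYN1, VIP, SV2A, PECAM1, TP63, LRRC23, NOA1, BTRC, ACP3, NTS, TAC1, PTHLH, GAPDH, ACTB, HPRT1, RPLP0 and the genes given under other observations were named after their values were seen. So were SNAP25, MYCN, ELAVL3, ELAVL4, FBXW11 and TBP. To check the arithmetic, 200 of 13154 genes in a copy of the C4-2B MDVR DMSO library were multiplied by known factors, without added noise. All 200 were called correctly. Without noise this was fixed in advance, so it does not measure how accurate calls from single libraries are. Alternatives were other pseudocounts, filters, scalings and thresholds. Python 3.11.15, pandas 2.3.3, numpy 2.4.6 and matplotlib 3.10.9 were used. A gene of the lists is not reported here.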

Additional observations from a re-analysis of the deposited data

Results flagged for a closer look

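Among the genes of the lists named here, 4 moved in opposite directions in the lines with the same inhibitor. Each moved by more than 1.2-fold and was at more than 0.1 FPKM. The difference was not tested, since each condition had 1 library. SYP with APO was at 1.23 in C4-2B MDVR cells and at -0.72 in CWR22Rv1 cells, a difference of 1.95 between the log2 fold changes. PCSK1N with APO was at 2.05 and -0.69, a difference of 2.75. DDC, which encodes the decarboxylase that makes dopamine and serotonin, was at 0.51 and -0.74 with VER, a difference of 1.26. KRT15, a basal keratin, was at 0.51 and -1.31 with APO, a difference of 1.82. Its C4-2B MDVR levels were 0.176 FPKM with DMSO and 0.293 FPKM with APO. MKX, named above for its likeness to REST and outside the lists, also moved in opposite directions with both inhibitors. It was at 0.173, 0.115 and 0.110 FPKM in C4-2B MDVR cells and at 0.947, 7.64 and 2.73 FPKM in CWR22Rv1 cells.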

How the results depend on the processing

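No paired analysis was possible because each condition has 1 library. With 1 library each, precision is limited by depth, and levels under 0.1 FPKM (5 of the 9 genes in C4-2B MDVR cells) support no fold change. Among single genes, 224 values kept their side of 1.2-fold and 11 did not. No value beyond 1.2-fold changed sign. Of those near 0, REST in C4-2B MDVR cells (0.05 with APO, -0.10 and -0.11 under the same-sum scalings, and -0.01 with VER, 0.01 without mitochondrial genes) and SYP with VER in CWR22Rv1 cells (0.01, then -0.05 under both) did. The same-sum scalings moved the median of genes above 1 FPKM to between -0.16 and 0.10 in the inhibitor comparisons, and fold changes under them are relative to that shift. No called gene of the lists changed sign under the 3 scalings. Of the numbers of changed genes, 37 stayed within 1.5 times. The others were lower, as stricter filters and thresholds make them: with more than 1 FPKM required, C4-2B MDVR cells had 1 gene for each inhibitor. At 1.5-fold and at 2-fold they had 1 for VER, and in CWR22Rv1 cells 5 and 3 changed with APO and 4 and 1 with VER. The median of the C4-2B MDVR comparison with APO was 0.16 with a pseudocount of 1, 0.0489 without a filter, where 9 genes enter, and reversed to -0.16 with more than 1 FPKM required, where ENO2 and REST alone remain. With that filter the medians with VER were -0.29 in C4-2B MDVR cells and 0.30 in CWR22Rv1 cells. The CWR22Rv1 median with APO was -0.21 with a pseudocount of 1 and -0.22 with equal sums, and the cause was not tested.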

Other observations

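Several genes of the lists that were low with DMSO in C4-2B MDVR cells were higher with APO there. They are named because of these values. Their DMSO levels were under 0.1 FPKM, and the DMSO library had a relative depth of 1 against 1.67 with APO. PTHLH, the parathyroid hormone-related peptide, was at 0.0520, 4.89 and 0.618 FPKM (in the order DMSO, APO, VER) in C4-2B MDVR cells and at 14.8, 12.5 and 12.7 FPKM in CWR22Rv1 cells. TAC1, the substance P precursor, was at 0, 0.855 and 0.0641 FPKM in C4-2B MDVR cells and listed at 0 in CWR22Rv1 cells. SCG5, a granin-like chaperone of PCSK2, was at 0.0607, 0.868 and 0 FPKM in C4-2B MDVR and 0.913, 0.614 and 0.2501 FPKM in CWR22Rv1 cells. SOX2, a stem cell factor, was at 0.0343, 0.255 and 0.241 FPKM in C4-2B MDVR and 0.387, 0.388 and 0.560 FPKM in CWR22Rv1 cells.

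In CWR22Rv1 cells NPY, the neuropeptide Y precursor, was at 3.48 FPKM with DMSO, 0.392 with APO and 2.39 with VER, and was listed at 0 in all 3 C4-2B MDVR libraries. PROX1, a homeobox factor, was at 1.26, 0.163 and 0.750 FPKM in CWR22Rv1 cells. ADCYAP1, the precursor of the peptide PACAP, was at 5.19, 3.37 and 5.80 FPKM in CWR22Rv1 cells and listed at 0 in C4-2B MDVR cells.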
